A study of Homo sapiens with 12 samples.

Results

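The genes described here encode the machinery of autophagy, the enzymes and membrane proteins of the lysosome, and the subunits of the V-ATPase proton pump. They were chosen by name as a list of 48 genes, 17 autophagy factors, 18 lysosomal proteins and 13 pump subunits, and each was read from the brightest probe set annotated to that gene alone. Such a probe set was found for 46 of the 48, out of 19775 genes in all. The enzyme gene GLB1 and the pump gene ATP6V1F were carried only by probe sets annotated with 2 symbols and were not analysed here. All 46 exceeded the level required for testing, which was a log2 value above 4 on 3 or more arrays.

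Messenger RNA was measured on 12 Affymetrix arrays of HK-2, an immortalised cell line derived from the proximal tubule of a human kidney. Each of the 4 groups held 3 biological replicates: cells given a high dose of a compound called Kbr for 24 h, their vehicle controls at 24 h, cells given the same high dose for 48 h, and vehicle controls at 48 h. All cultures were seeded 24 h before treatment in the same medium supplemented with growth factors, and all came from a single cell line. The dose is stated only as high, and the sources used here do not spell out the compound's name.

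Autophagy encloses cytoplasm in a double membrane, the autophagosome, which fuses with the lysosome. Kinase and lipid kinase complexes start the membrane, and a conjugation system attaches small ubiquitin-like proteins of the ATG8 family to it. Lysosomal hydrolases then break the content down in an acidic lumen, and the acid is supplied by the V-ATPase, whose soluble V1 sector hydrolyses ATP and whose membrane sector V0 carries the protons. In the proximal tubule this system handles large amounts of reabsorbed protein. The transcription factors TFEB and TFE3 are known to bind a motif shared by many promoters of lysosomal and pump genes.

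At 24 h of Kbr, 11 of the 46 genes were higher and 9 were lower than in vehicle cultures. Called here means a Benjamini-Hochberg adjusted p under 0.05 over all 10574 tested genes in limma. The 20 called genes made up 43.5% of the 46, against 32.4% of all tested genes, and the median log2 fold change of the 46 was -0.02, against -0.06 over all tested genes. At 48 h, 17 were higher and 11 lower, 60.9% of the 46 against a background of 59.6%, and the median was 0.15 against -0.06. The share at 48 h thus lay close to the background. With the replicate number as a block, which pairs the arrays of a number, 25 of the 46 were called at 24 h and 31 at 48 h, against backgrounds of 48.0% and 69.4%. Changes of at least 2-fold were called in 7 of the 46 at 48 h, against 23.4% of all tested genes, and in 0 at 24 h, against 7.24%. The ranges of the Kbr and the control arrays were clear of each other in 25 genes at 24 h, where the background was 51.6%, and in 29 at 48 h, where it was 62.8%. All 20 genes called at 24 h were called in the same direction at 48 h, 8 were called at 48 h alone, and 18 at neither time. Because whole cultures were measured, fewer cells of a kind and less RNA per cell cannot be told apart.

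Of the called members, most autophagy factors and pump subunits were higher and most lysosomal proteins lower. Of 17 autophagy factors, 5 were higher and 3 lower at 24 h, and 8 were higher and 3 lower at 48 h, with a median log2 fold change of 0.25 at 48 h. Of 17 lysosomal proteins, 2 were higher and 5 lower at 24 h, and 2 were higher and 7 lower at 48 h, with a median of -0.36 at 48 h. Of 12 pump subunits, 4 were higher and 1 lower at 24 h, and 7 were higher and 1 lower at 48 h, with a median of 0.39 at 48 h. Over all tested genes 12.4% were called higher and 20.0% lower at 24 h, and 26.9% higher and 32.8% lower at 48 h. The members were chosen with earlier results of these data known, and the difference between the classes was not tested. The directions hold for this list: outside it, as given below, called pump genes were mostly lower at 48 h and called autophagy genes were split.

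**Figure D1:**
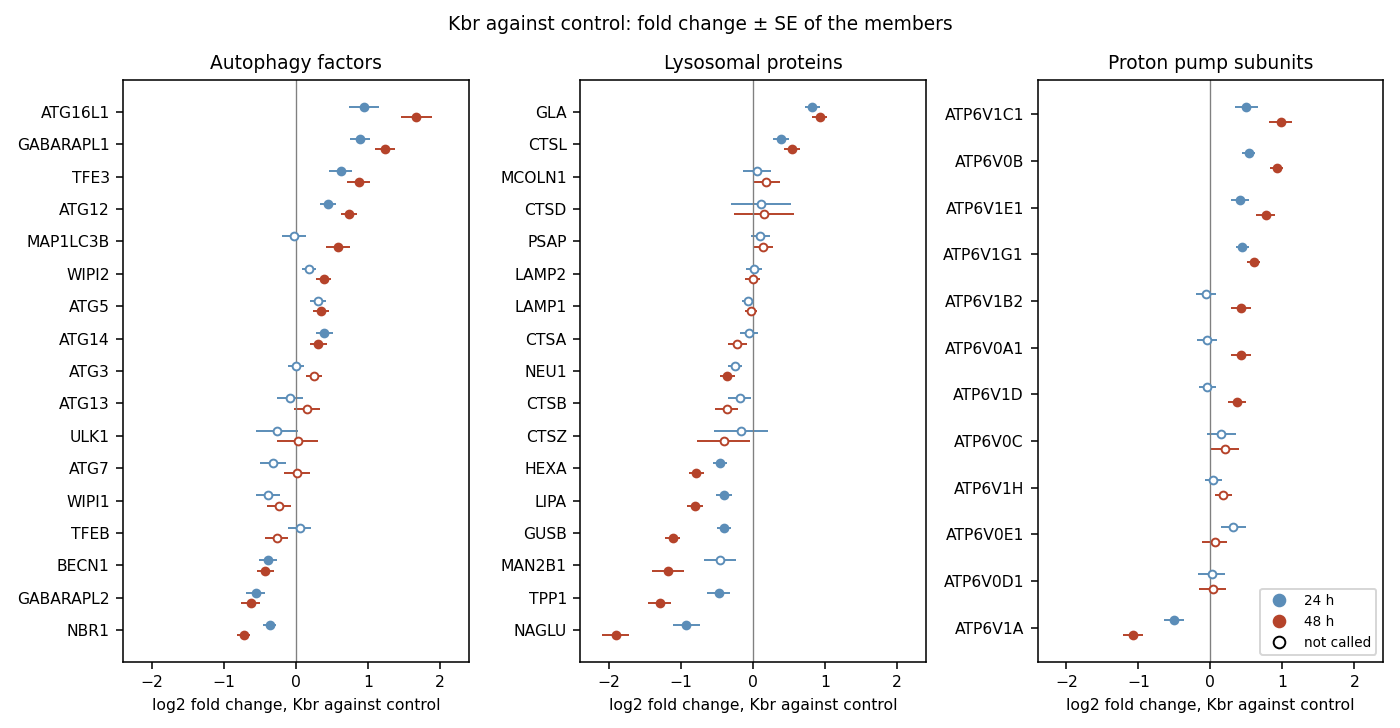
Log2 fold change of Kbr against control, with its moderated SE, for the 46 genes in 3 panels, at 24 h (blue) and 48 h (red); filled points were called at an adjusted p under 0.05 and open points were not. Most called pump subunits and autophagy factors lie to the right of 0 and most called lysosomal enzymes to the left, from 1.67 for ATG16L1 to -1.91 for NAGLU at 48 h.

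The arrays differed in ways that touch these results. The array of Kbr 48 h replicate 3 stood furthest from its group, with a root mean square deviation of 0.29 over tested genes against 0.164 to 0.228 in the other 11 arrays. Without it the counts over the 46 genes were 12 higher and 9 lower at 24 h, where 36.7% of all tested genes were called, and 17 higher and 11 lower at 48 h, where 59.2% were. Without control 24 h replicate 1 the number called at 24 h dropped from 20 to 10, which is 21.7% of the 46 against 21.3% of all tested genes, so the share then lay close to the background. Of the proximal tubule and epithelial markers, PAX8, KRT8, KRT18 and EPCAM passed the level for testing, while AQP1, GGT1, ANPEP, MME, LRP2, CUBN and SLC34A1 had group means of 2.09 to 3.60 and did not. None of 12 leukocyte and macrophage markers passed it (group means 2.14 to 3.04). Of 11 fibroblast and endothelial markers 4 passed it, COL1A1, DCN, LUM and TEK. TEK lay barely over it, with group means of 4.08 to 4.18, and the 7 that did not pass had group means of 2.36 to 3.36. At 48 h COL1A1, DCN and LUM had means of 8.02, 11.90 and 9.88 in controls and 5.36, 9.99 and 7.88 with Kbr. Dimmer COL1A1 probe sets, 202310_s_at and 217430_x_at, changed by -0.98 and -0.14 at 48 h and were not called. The summed log2 level of those 11 fibroblast and endothelial markers lay between 53.5 and 54.5 in control arrays and between 49.7 and 51.2 in Kbr arrays at 24 h, and between 52.4 and 53.1 against 45.4 and 47.5 at 48 h. The epithelial markers were split at 48 h. PAX8 and KRT18 had means of 10.79 and 12.60 in controls and 11.35 and 13.03 with Kbr. KRT8 and EPCAM had means of 11.60 and 13.37 in controls and 10.92 and 12.85 with Kbr. The part of all these markers in the results below was not tested.

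The promoters of the genes were searched for the core motif that TFEB and TFE3 are known to bind, since TFE3 itself was among the genes called. RefSeq promoter windows (GRCh38.p14, 250 bases before to 50 after the transcription start) were given for 38 of the 48 genes, 47 windows in all. The motif GTCACGTG, read on either strand and containing the shorter motif CACGTG, lay in 19.1% of these windows, against 2.4% of all 35116 windows and 4.19% of the windows of tested genes. CACGTG, counted whether or not it was part of the longer motif, lay in 21.3% of them. This was against 7.26% of all windows and 9.84% of the windows of tested genes. Promoters of 6 genes are shown, as they hold the motif in genes of differing response: ATP6V0B, ATP6V1G1 and ATG14 were called higher at 48 h, and ATP6V0D1, LAMP1 and MCOLN1 were not called. Capitals mark every copy of GTCACGTG in the stretch, on either strand: ATG14 holds it on the other strand, the LAMP1 stretch holds 2 copies, and in ATP6V1G1 copies on both strands overlap. Outside the stretches shown, the LAMP1 window holds further copies starting at -161, -144, -28 and -1. The MCOLN1 window holds further copies starting at -16 and -14. The sequences run 5′ to 3′ on the strand of the gene.
ATP6V0B, chr1:43974883-43974926, plus strand, motif starting at -59: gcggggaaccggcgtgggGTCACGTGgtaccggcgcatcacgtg
ATP6V1G1, chr9:114587691-114587734, plus strand, motif starting at -60: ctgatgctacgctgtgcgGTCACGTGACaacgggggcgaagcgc
ATG14, chr14:55411831-55411869, minus strand, motif starting at -21: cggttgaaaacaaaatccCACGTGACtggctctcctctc
ATP6V0D1, chr16:67481193-67481236, minus strand, motif starting at -61: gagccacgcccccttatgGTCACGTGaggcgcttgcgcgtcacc
LAMP1, chr13:113297027-113297070, plus strand, motifs starting at -194 and -178: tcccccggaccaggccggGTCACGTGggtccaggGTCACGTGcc
MCOLN1, chr19:7522563-7522606, plus strand, motif starting at -43: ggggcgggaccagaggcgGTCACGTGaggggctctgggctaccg
GTCACGTG was found in 3 of the 15 genes called higher at 48 h that had a window, in 0 of the 8 called lower and in 6 of the 13 measured but not called, the last being ATG3, CTSD, LAMP1, ATP6V0D1, MCOLN1 and CTSA. A match is a description of letters, and no match says only that these letters are not in the window. The motifs were picked after earlier results of these data were known. Since the motif is known from many promoters of such genes, its share in the list is not a result of these arrays.

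Among the autophagy factors, the ATG8 family was split. These small proteins are attached to the lipid of the forming autophagosome. GABARAPL1 (probe set 208868_s_at) read 7.85, 7.73 and 7.56 in the control arrays and 8.65, 8.38 and 8.78 in the Kbr arrays at 24 h. At 48 h it read 7.76, 7.96 and 8.20 in controls and 9.24, 9.24 and 9.14 with Kbr. Every Kbr array thus lay above every control array at both times, and the rise was 1.86-fold at 24 h (log2 fold change 0.89, SE 0.14, limma adjusted p = 0.00106) and 2.35-fold at 48 h (1.23, SE 0.14, adjusted p = 2.8e-05).

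MAP1LC3B, whose protein LC3B is the usual marker of autophagosomes, was called higher at 48 h and was not called at 24 h. At 24 h its control arrays read 10.80, 10.86 and 11.15 and its Kbr arrays 10.81, 10.83 and 11.08, so the groups overlapped (log2 fold change -0.03, SE 0.17, limma adjusted p = 0.919). At 48 h its controls read 10.89, 10.78 and 11.08 and its Kbr arrays 11.79, 11.55 and 11.15. The Kbr arrays were all higher, with replicate 3, the array that stood apart, the lowest of them, and the change was 1.49-fold (0.58, SE 0.17, adjusted p = 0.011). In replicate 3 the Kbr array exceeded its control by 0.07. The change of the effect from 24 h to 48 h was 0.61 (SE 0.23, limma adjusted p = 0.143). It was not called, except without Kbr 48 h replicate 3 (0.78, adjusted p = 0.0291). A second MAP1LC3B probe set, 208785_s_at, rose by 0.78 at 48 h.

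GABARAPL2 went the other way. It read 11.30, 11.60 and 11.27 in controls and 10.63, 11.04 and 10.81 with Kbr at 24 h, and 11.61, 11.76 and 11.61 against 10.89, 11.11 and 11.08 at 48 h. All Kbr arrays were below all controls, and the log2 scale change was -0.56 at 24 h (SE 0.13, limma adjusted p = 0.00776) and -0.63 at 48 h (SE 0.13, adjusted p = 0.00157). GABARAP, which names its branch of the family, was not on the list of 48 but is given here to complete the family. It read 12.35, 12.06 and 11.99 in controls and 11.56, 11.52 and 11.48 with Kbr at 24 h, then 12.66, 12.24 and 12.35 against 11.34, 11.05 and 11.26 at 48 h. These groups did not overlap either, with changes of -0.61 (SE 0.13, adjusted p = 0.00614) and -1.20 (SE 0.13, adjusted p = 2.72e-05). MAP1LC3A, MAP1LC3C and MAP1LC3B2 had group means between 2.17 and 3.62, under the level for testing.

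Of the 4 listed genes that start the membrane, BECN1 was lower and ATG14 higher at both times. ULK1 and ATG13, of the initiating kinase complex, were called at neither time: ULK1 lay near the level for testing, with group means of 3.91 to 4.22, and ATG13 differed by -0.09 at 24 h and 0.15 at 48 h. BECN1 and ATG14 encode subunits of the lipid kinase complex that makes phosphatidylinositol 3-phosphate. BECN1 read 10.14, 9.91 and 10.18 in controls and 9.64, 9.80 and 9.61 with Kbr at 24 h, and 10.09, 10.12 and 10.10 against 9.92, 9.60 and 9.50 at 48 h. Its Kbr arrays were all below its controls, with changes of -0.39 (SE 0.12, limma adjusted p = 0.031) and -0.43 (SE 0.12, adjusted p = 0.0106). ATG14, which directs that complex to autophagosome formation, was higher at both times, by 0.39 (SE 0.12, adjusted p = 0.0252) and 0.31 (SE 0.12, adjusted p = 0.0355). The calls of this pair were narrow. At 24 h, BECN1 was not called without Kbr replicate 1, Kbr replicate 3, control replicate 1 or control replicate 3 (-0.37 to -0.34, adjusted p 0.0889 to 0.0993). ATG14 was not called at 24 h without Kbr replicate 1, Kbr replicate 2, control replicate 1 or control replicate 3 (0.34 to 0.38, adjusted p 0.0706 to 0.0916), and at 48 h without Kbr replicate 1 or control replicate 3 (0.23 for each, adjusted p 0.129 and 0.132), with median centring (0.30, 0.0547) or with only the groups compared (0.31, 0.0829).

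WIPI1 and WIPI2 bind phosphatidylinositol 3-phosphate on the growing membrane. WIPI2 was called higher at 48 h (0.38, SE 0.10, limma adjusted p = 0.00824) and, with the replicate number as a block, at 24 h too (0.18, adjusted p = 0.0392). With all probe sets averaged or unsuffixed probe sets preferred it was also called at 24 h (0.32 and 0.77, adjusted p = 0.0124 and 0.000719). WIPI1 differed by -0.39 at 24 h and -0.24 at 48 h and was not called at either time (adjusted p = 0.104 and 0.247), except at 24 h with only the groups compared (0.0285).

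The conjugation genes contained the largest rise among the 46. ATG16L1, which carries the conjugating complex to the membrane, read 6.72, 6.64 and 6.67 in controls and 7.70, 7.82 and 7.33 with Kbr at 24 h. At 48 h the controls read 6.33, 6.34 and 6.50 and the Kbr arrays 7.93, 8.60 and 7.65. The groups were clear of each other at both times, and the spread among Kbr arrays at 48 h (SD 0.49) was wider than among controls (SD 0.09). The rise was 1.92-fold at 24 h (0.94, SE 0.21, limma adjusted p = 0.00644) and 3.18-fold at 48 h (1.67, SE 0.21, adjusted p = 5.42e-05).

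ATG12 and ATG5, the protein pair joined in that complex, were both called higher at 48 h. ATG12 changed by 0.44 at 24 h (SE 0.11, limma adjusted p = 0.0125) and 0.73 at 48 h (SE 0.11, adjusted p = 0.000231). Its 24 h call was lost without control 24 h replicate 1 (0.36, adjusted p = 0.0562). ATG5 changed by 0.35 at 48 h (SE 0.11, adjusted p = 0.0187), and by 0.30 at 24 h, where it was not called (adjusted p = 0.0589). At 24 h it was called with the replicate block (adjusted p = 0.00611) and narrowly with the offset of 32, the trended prior, only the groups compared, or without Kbr 48 h replicate 1, Kbr 48 h replicate 3 or control 48 h replicate 1 (0.29 to 0.30, adjusted p 0.0429 to 0.0494). The 48 h call of ATG5 was lost without Kbr replicate 2 (0.31, adjusted p = 0.0629), Kbr replicate 3 (0.29, 0.0568) or control replicate 1 (0.27, 0.0732), and with only the groups compared (0.35, 0.0663). Its probe sets also disagreed: 202511_s_at, used here, was called higher at 48 h, whereas 202512_s_at fell by 1.30 (SE 0.19, adjusted p = 0.000183 over probe sets). The direction of ATG5 is therefore given for its brightest probe set only.

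ATG7 and ATG3 are the activating and conjugating enzymes of the system. ATG7 differed by -0.32 at 24 h and 0.01 at 48 h and was not called, except at 24 h with only the groups compared or without control 48 h replicate 3 (adjusted p = 0.0476 and 0.0455). ATG3 differed by -0.00 and 0.25 and was not called (adjusted p = 0.0626 at 48 h). At 48 h it was called with the replicate block (adjusted p = 0.00941), the offset of 32 (0.0477), the trended prior (0.0361) and without Kbr 48 h replicate 3 (0.34, 0.0167). A dimmer ATG3 probe set, 220237_at, was called higher at both times, by 1.26 and 2.19 (SE 0.29 for each), and the mean of all probe sets by 0.63 and 1.22 (adjusted p = 0.0241 and 0.000225), so the probe sets of ATG3 differed in size by far more than their SE.

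NBR1, a receptor that brings ubiquitin-tagged cargo to the autophagosome, was lower. Its controls read 9.81, 9.78 and 9.65 and its Kbr arrays 9.31, 9.42 and 9.41 at 24 h, then 10.02, 10.13 and 10.13 against 9.47, 9.34 and 9.28 at 48 h. The groups did not overlap at either time (-0.37, SE 0.09, limma adjusted p = 0.0101; -0.73, SE 0.09, adjusted p = 4.82e-05). SQSTM1, encoding the related receptor p62, is not among the 46 and rose by 1.43 at 24 h and 1.47 at 48 h, with all of its 3 probe sets called higher at both times. The mean of all its probe sets rose by 0.90 at each time.

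The transcription factors TFE3 and TFEB differed from each other. TFE3 read 9.85, 9.50 and 9.90 in controls and 10.66, 10.16 and 10.29 with Kbr at 24 h, and 9.64, 9.55 and 9.93 against 10.71, 10.57 and 10.44 at 48 h. Its Kbr arrays lay above its controls at both times (0.62, SE 0.16, limma adjusted p = 0.0138; 0.87, SE 0.16, adjusted p = 0.000808). Without Kbr 24 h replicate 1 or control 24 h replicate 2, TFE3 was not called at 24 h (0.48 and 0.50, adjusted p = 0.0548 and 0.0537). TFEB read 4.60, 4.40 and 4.56 in controls and 4.56, 4.57 and 4.56 with Kbr at 24 h, and 5.14, 4.58 and 4.54 against 4.56, 4.25 and 4.66 at 48 h. These values overlapped, lay close to the level for testing, and were not called (0.05, adjusted p = 0.85; -0.27, adjusted p = 0.175).

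**Figure D2:**
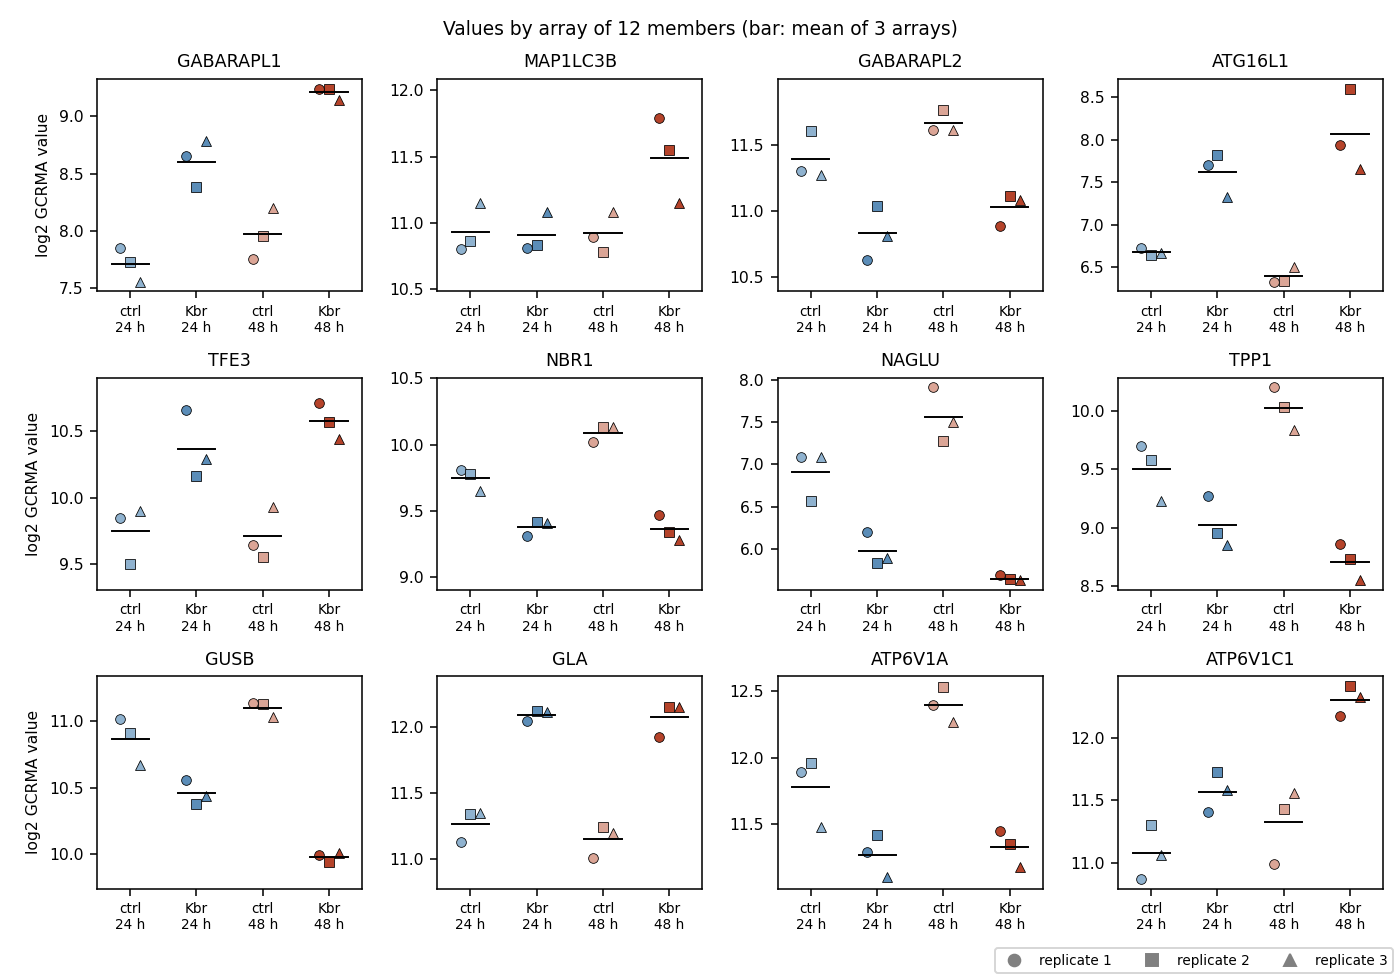
Log2 GCRMA value in each of the 12 arrays for 12 of the genes, with the replicate number as the marker shape and a bar at the mean of 3 arrays; each panel has its own vertical range. GABARAPL1, ATG16L1, GLA and TFE3 lie higher and GABARAPL2, NBR1, NAGLU, GUSB and ATP6V1A lower in all Kbr arrays than in any control of that time, ATP6V1C1 lies higher, and MAP1LC3B and TPP1 separate at 48 h.

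Of the lysosomal membrane proteins 3 were measured: LAMP1 and LAMP2, which coat the inner face of the membrane, and the calcium channel MCOLN1. None of the 3 was called at 24 h or 48 h by limma, and 0 of 3 had an unadjusted p under 0.05 at either time. LAMP1 read 13.25, 13.31 and 13.19 in controls and 13.20, 13.16 and 13.16 with Kbr at 24 h, and 13.27, 13.41 and 13.32 against 13.37, 13.27 and 13.29 at 48 h, with differences of -0.08 and -0.03 (SE 0.08 for each). LAMP2 differed by 0.01 and -0.01 (SE 0.11 for each), and MCOLN1 by 0.05 and 0.18 (SE 0.19 for each). The levels of both LAMP genes thus differed by about their SE or less, while of the other 3 LAMP2 probe sets 2 were called lower at 48 h, 226671_at (-0.82, SE 0.13, adjusted p = 0.000356 over probe sets) and 203041_s_at (-0.32, SE 0.12, adjusted p = 0.0473). The mean of all LAMP2 probe sets was called lower at 48 h (-0.35, adjusted p = 0.00888).

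Of 6 proteases, CTSL was called higher and TPP1 lower at both times. CTSL encodes cathepsin L, an endopeptidase. It read 9.43, 9.24 and 9.49 in controls and 9.78, 9.69 and 9.84 with Kbr at 24 h, and 9.07, 9.09 and 9.38 against 9.72, 9.65 and 9.78 at 48 h. Every Kbr array was above every control, with rises of 0.38 (SE 0.11, limma adjusted p = 0.0228) and 0.54 (SE 0.11, adjusted p = 0.00153). CTSL was not called at 24 h without Kbr 24 h replicate 1, Kbr 24 h replicate 3, control 24 h replicate 1 or control 24 h replicate 2 (0.31 to 0.40, adjusted p 0.0514 to 0.0846).

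TPP1, tripeptidyl peptidase 1, cleaves tripeptides from protein ends. It read 9.70, 9.58 and 9.23 in controls and 9.27, 8.95 and 8.85 with Kbr at 24 h, which overlapped. At 48 h it read 10.20, 10.03 and 9.83 in controls and 8.86, 8.73 and 8.55 with Kbr, which did not. The changes were -0.48 (SE 0.16, limma adjusted p = 0.0395) and -1.30 (SE 0.16, adjusted p = 4.68e-05), the latter 2.47-fold. TPP1 was not called at 24 h when any of 6 arrays was left out, Kbr 24 h replicates 2 and 3, Kbr 48 h replicate 2, control 24 h replicates 1 and 2, and control 48 h replicate 2 (-0.48 to -0.38, adjusted p 0.0518 to 0.146), and with the replicate block its adjusted p was 0.000802.

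The other cathepsins, CTSA, CTSB, CTSD and CTSZ, were not called at either time. Their log2 fold changes ran from -0.19 to 0.11 at 24 h and from -0.41 to 0.15 at 48 h. CTSB differed by -0.37 at 48 h (adjusted p = 0.0675). It was called lower there with the replicate block (adjusted p = 0.00353), quantile normalization (-0.42, 0.0443) and without control 24 h replicate 1 (0.0486) or control 48 h replicate 2 (-0.49, 0.0327). A second CTSB probe set of nearly the same level, 200839_s_at, was called lower at 48 h (-0.43, SE 0.16, limma adjusted p = 0.0357 over probe sets). The remaining CTSB probe sets were not called. CTSD, the main aspartic protease of the lysosome, was ordered by replicate number in all 4 groups: replicate 1 lay between 9.55 and 9.65, replicate 3 between 9.05 and 9.27 and replicate 2 between 8.27 and 8.79. Its spread within a group was therefore wide (SD 0.42 to 0.71), and its SE of 0.42 was larger than its differences of 0.11 and 0.15. With the replicate block its SE was 0.12 at each time, and it was still not called (limma adjusted p = 0.477 and 0.288). CTSD was the only gene of the 46 whose replicate numbers did not overlap over the 4 groups. In ATP6V0C and ATP6V0D1, replicate 2 lay below all other arrays. ATP6V0D1 read 11.67 to 11.71 in the replicate 2 arrays and 12.05 to 12.21 in all others, so that the number separated the arrays and the treatment did not (differences of 0.02 and 0.03).

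**Figure D3:**
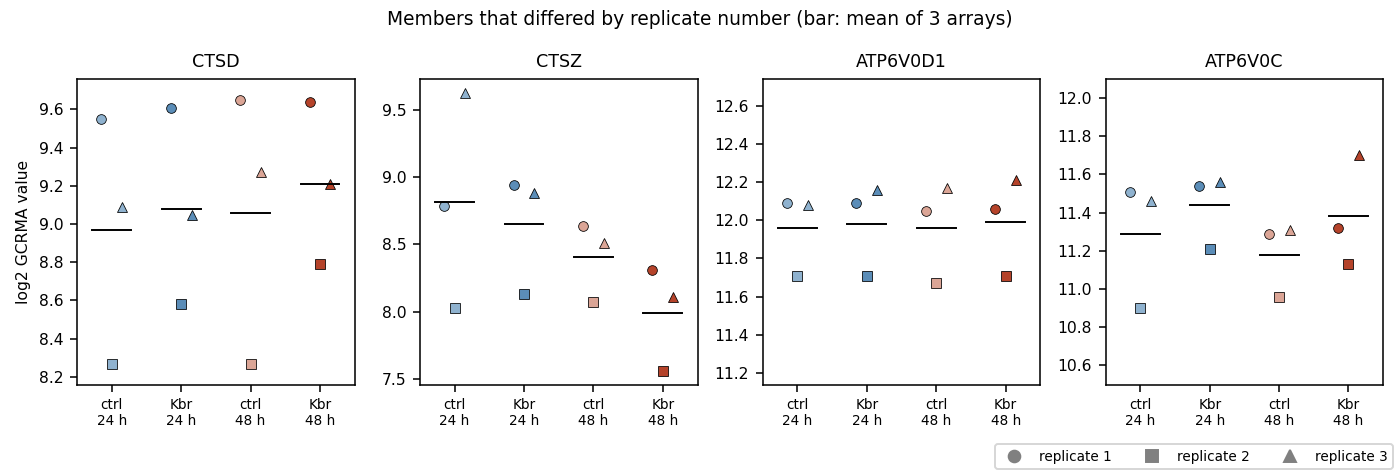
Log2 GCRMA value of CTSD, CTSZ, ATP6V0D1 and ATP6V0C in each array, by group, with the replicate number as the marker shape and a bar at the mean of 3 arrays; each panel has its own vertical range. Replicate 2 (square) is the lowest array of every group in all 4 panels, and ATP6V0D1 lies at 11.67 to 11.71 in replicate 2 and at 12.05 to 12.21 in the others.

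The glycosidases, which strip sugars from glycoproteins, glycolipids and proteoglycans, contained 3 of the 5 called falls of the lysosomal class at 24 h and 5 of its 7 at 48 h. At 48 h, 5 of the 6 measured were lower and 1 was higher, and their median log2 fold change was -0.96. At 24 h, 3 were lower and 1 higher, and with the replicate block 5 were lower. Over all tested genes 32.8% were called lower and 26.9% higher at 48 h, and 20.0% lower and 12.4% higher at 24 h. With the block, 3109 of all 10574 tested genes were called lower at 24 h. NAGLU, which acts on heparan sulfate, read 7.09, 6.56 and 7.08 in controls and 6.20, 5.83 and 5.89 with Kbr at 24 h, and 7.91, 7.27 and 7.50 against 5.69, 5.64 and 5.63 at 48 h. This was the largest fall of the 46 genes, -0.93 at 24 h (SE 0.19, limma adjusted p = 0.0037) and -1.91, or 3.75-fold, at 48 h (SE 0.19, adjusted p = 1.09e-05). The groups did not overlap at either time.

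MAN2B1, the lysosomal alpha-mannosidase, read 8.51, 7.84 and 8.21 in controls and 8.0, 7.29 and 7.90 with Kbr at 24 h, which overlapped. At 48 h its controls read 8.53, 8.35 and 8.52 and its Kbr arrays 7.47, 6.93 and 7.47. The change was -0.46 at 24 h, called only with the replicate block (adjusted p = 0.141 without and 0.00832 with it), and -1.18 at 48 h (SE 0.22, limma adjusted p = 0.000938). In each of the 3 replicate numbers the Kbr array was below its control at both times. HEXA, a subunit of beta-hexosaminidase, read 10.08, 9.98 and 9.80 in controls and 9.44, 9.59 and 9.45 with Kbr at 24 h, and 10.43, 10.23 and 10.19 against 9.56, 9.45 and 9.45 at 48 h. HEXA was lower at both times, with no overlap (-0.46, SE 0.10, adjusted p = 0.00733; -0.79, SE 0.10, adjusted p = 7.7e-05).

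GUSB encodes beta-glucuronidase. Its controls read 11.02, 10.91 and 10.67 and its Kbr arrays 10.56, 10.38 and 10.44 at 24 h, then 11.14, 11.13 and 11.03 against 9.99, 9.94 and 10.01 at 48 h. The groups were apart at both times (-0.41, SE 0.10, limma adjusted p = 0.0117; -1.12, SE 0.10, adjusted p = 7.18e-06), and the 24 h call was lost without control 24 h replicate 1 (-0.33, adjusted p = 0.0531). The level moved down between times with Kbr, from a mean of 10.46 to 9.98, and up in controls, from 10.87 to 11.10. NEU1, the sialidase, was called lower at 48 h (-0.36, SE 0.10, adjusted p = 0.0103) and, only with the replicate block, at 24 h (-0.25, adjusted p = 0.0808 without and 0.0286 with it).

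GLA, alpha-galactosidase A, was the glycosidase that rose. It read 11.13, 11.34 and 11.35 in controls and 12.04, 12.12 and 12.11 with Kbr at 24 h, and 11.01, 11.24 and 11.20 against 11.92, 12.15 and 12.15 at 48 h. All Kbr arrays were above all controls, by 1.76-fold at 24 h (0.82, SE 0.10, limma adjusted p = 0.000414) and 1.89-fold at 48 h (0.92, SE 0.10, adjusted p = 2.91e-05). The direction of GLA was thus opposite to that of the other 5 measured glycosidases at 48 h.

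LIPA, the acid lipase that frees cholesterol from its esters, changed by -0.41 at 24 h (SE 0.11, limma adjusted p = 0.0174) and -0.81 at 48 h (SE 0.11, adjusted p = 0.000112). Leaving out Kbr 24 h replicate 1, Kbr 24 h replicate 2 or control 24 h replicate 1 ended its 24 h call (-0.40 to -0.35, adjusted p 0.0504 to 0.0675). PSAP, the precursor of the saposins that present lipids to the enzymes, differed by 0.10 and 0.14 (SE 0.13 for each) and was not called.

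Among the 12 listed and measured V-ATPase subunits, most called ones were higher. Of the 5 membrane sector genes among them, ATP6V0B was higher at both times and ATP6V0A1 at 48 h. ATP6V0B, a proteolipid of the rotating ring, read 9.95, 10.07 and 10.05 in controls and 10.45, 10.67 and 10.55 with Kbr at 24 h, and 9.91, 9.97 and 9.97 against 10.77, 10.93 and 10.92 at 48 h. The groups were far apart relative to their spread (0.53, SE 0.09, limma adjusted p = 0.00167; 0.92, SE 0.09, adjusted p = 1.16e-05). ATP6V0A1, which encodes the a1 form of the large membrane subunit, was called at 48 h (0.42, SE 0.14, adjusted p = 0.0261) but not without Kbr 48 h replicate 1 or control 48 h replicate 2 (0.33 and 0.28, adjusted p = 0.0969 and 0.106). ATP6V0C, ATP6V0D1 and ATP6V0E1 were not called, with log2 fold changes of 0.15, 0.02 and 0.32 at 24 h and 0.20, 0.03 and 0.06 at 48 h, and ATP6V0E1 was called higher at 24 h only with the replicate block (adjusted p = 0.163 without and 0.027 with it).

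Of the 7 listed and measured genes of the catalytic sector, 3 were higher and 1 lower at 24 h, and 5 were higher and 1 lower at 48 h. ATP6V1C1, a stalk subunit that takes part in joining V1 to V0, read 10.87, 11.30 and 11.06 in controls and 11.41, 11.73 and 11.58 with Kbr at 24 h, and 10.99, 11.43 and 11.56 against 12.18, 12.42 and 12.33 at 48 h. It was higher by 1.41-fold at 24 h (0.50, SE 0.16, limma adjusted p = 0.0379) and 1.97-fold at 48 h (0.98, SE 0.16, adjusted p = 0.000384), with no overlap at either time. Its 24 h call was lost without Kbr 24 h replicate 2 or 3, or control 24 h replicate 1 or 3 (0.40 to 0.49, adjusted p 0.0793 to 0.141).

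ATP6V1E1 and ATP6V1G1 encode the paired subunits of the outer stalks. ATP6V1E1 read 11.37, 11.66 and 11.61 in controls and 11.83, 12.05 and 12 with Kbr at 24 h, and 11.27, 11.44 and 11.68 against 12.09, 12.30 and 12.30 at 48 h. ATP6V1G1 read 11.35, 11.51 and 11.52 in controls and 11.88, 11.96 and 11.85 with Kbr at 24 h, and 11.47, 11.62 and 11.58 against 12.04, 12.26 and 12.18 at 48 h. For both genes the lowest Kbr array lay above the highest control of that time. ATP6V1E1 changed by 0.41 (SE 0.13, limma adjusted p = 0.0322) and 0.77 (SE 0.13, adjusted p = 0.000423), and ATP6V1G1 by 0.44 (SE 0.09, adjusted p = 0.00571) and 0.60 (SE 0.09, adjusted p = 0.000263). The 24 h call of ATP6V1E1 was lost without Kbr 24 h replicate 2, Kbr 24 h replicate 3 or control 24 h replicate 1 (0.32 to 0.39, adjusted p 0.0886 to 0.126).

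ATP6V1B2, of the ATP-binding ring, and ATP6V1D, of the central shaft, were called higher at 48 h alone, by 0.42 (SE 0.14, limma adjusted p = 0.0257) and 0.37 (SE 0.12, adjusted p = 0.0206). Neither call held without Kbr 48 h replicate 2 or control 48 h replicate 1: ATP6V1B2 then changed by 0.34 and 0.27 (adjusted p = 0.0964 and 0.101) and ATP6V1D by 0.30 and 0.29 (adjusted p = 0.0812 and 0.0795). ATP6V1H, a regulator of the sector, was called at 48 h only with the replicate block (0.18, adjusted p = 0.2 without and 0.0386 with it).

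ATP6V1A, the catalytic subunit that hydrolyses ATP, was the only 1 of the 12 listed and measured pump subunits called lower. Pump genes outside the list are given below. It read 11.89, 11.96 and 11.48 in controls and 11.29, 11.42 and 11.10 with Kbr at 24 h, and 12.40, 12.53 and 12.27 against 11.45, 11.35 and 11.18 at 48 h. The Kbr arrays were below the controls at both times, by 0.51 on the log2 scale at 24 h (-0.51, SE 0.14, limma adjusted p = 0.0209) and 2.11-fold at 48 h (-1.08, SE 0.14, adjusted p = 8.87e-05). Its mean with Kbr was 11.27 at 24 h and 11.33 at 48 h, while its control mean went from 11.78 to 12.40. ATP6V1A was not called at 24 h without Kbr 24 h replicate 3 or control 24 h replicates 1 or 2 (-0.42, -0.45 and -0.41, adjusted p = 0.0808, 0.0792 and 0.0765).

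Whether the Kbr effect differed between 24 h and 48 h was tested directly. Of the 46 genes 1 was called, GUSB, whose effect was more negative at 48 h by 0.71 (a difference of -0.71, SE 0.14, limma adjusted p = 0.0231); the background was 5.58% of all tested genes, 2.09% in the positive and 3.49% in the negative direction. With the replicate block 10 were called (adjusted p 0.0029 to 0.0476), 21.7% of the 46 against a background of 20.2% (8.83% positive and 11.4% negative). The 5 with a more negative effect at 48 h were NAGLU (-0.97), TPP1 (-0.82), MAN2B1 (-0.72), GUSB and ATP6V1A (-0.57), and the 5 with a more positive effect were pump genes, ATP6V1B2 (0.48), ATP6V1C1 (0.48), ATP6V1D (0.41), ATP6V0B (0.39) and ATP6V1E1 (0.36). Without Kbr 48 h replicate 3, 3 genes were called, 6.52% of the 46, which lies below the background of 14.3% in that fit. GUSB itself was not called when any of 6 arrays was left out, Kbr 24 h replicates 1 and 3, Kbr 48 h replicate 2, control 24 h replicate 3 and control 48 h replicates 1 and 2 (-0.72 to -0.62, adjusted p 0.0515 to 0.0641), or with the mean of all probe sets (-0.38, adjusted p = 0.0595).

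Some genes differed between the vehicle cultures of the 2 times in the fit of all 12 arrays. With only the control arrays fitted, 0 of all 10574 tested genes were called higher and 0 lower. Between 24 h and 48 h of vehicle, 3 of the 46 genes rose, 6.52% against a background of 4.03% (1.73% higher and 2.30% lower): ATP6V1A by 0.63 (SE 0.14, limma adjusted p = 0.0419), ATG14 by 0.49 (SE 0.12, adjusted p = 0.045) and NEU1 by 0.47 (SE 0.10, adjusted p = 0.0363). In the other direction limma called 0, and 0 had an unadjusted p under 0.05, while 9 were higher at that unadjusted level. With the replicate block 9 were called higher (19.6% of the 46, against 8.62% of all tested genes called higher, 12.2% called lower and 20.8% in all), adding NAGLU (0.65), TPP1 (0.51), NBR1 (0.34), HEXA (0.33), PSAP (0.32) and GABARAPL2 (0.27). The number called ranged from 0 to 4 when arrays were left out: it was 0 without any of control 24 h replicates 1 and 3, control 48 h replicate 1, Kbr 48 h replicate 2 and all 3 Kbr 24 h arrays, 1 without control 48 h replicate 2 and 4 without Kbr 48 h replicate 3. The changes at 48 h are differences from the controls of that time, and both time contrasts and the change of the effect share the control arrays.

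Other genes of the same processes were taken from lists of named genes. Of 37 other autophagy genes tested, 5 were higher and 11 lower at 24 h and 13 higher and 11 lower at 48 h, with a median log2 fold change of -0.00 at 48 h. The called shares were 43.2% and 64.9%, against 32.4% and 59.6% of all tested genes. Besides SQSTM1, the largest called rises were in ATG101, a partner of ATG13 in the initiating complex (0.78 and 1.62), RAB7A, a small GTPase of late endosomes (0.52 and 0.77), and RB1CC1, the scaffold of the ULK1 complex (0.82 at 48 h). The largest called falls were in FYCO1, which links autophagosomes to kinesin (-1.01 and -2.32), ATG10, the enzyme that joins ATG12 to ATG5 (-0.98 and -1.70), GABARAP (-1.20 at 48 h) and RUBCN, a negative regulator of autophagosome maturation (-0.94 at 24 h). Averaging all probe sets, dim ones included, gave RAB7A 0.38, FYCO1 -1.16 and ATG10 -1.04 at 48 h and FYCO1 -0.50 at 24 h, and RAB7A was then not called at 24 h (0.19, adjusted p = 0.0665), nor with unsuffixed probe sets (0.27, 0.483). RUBCN was not called without Kbr 24 h replicates 1 or 3 or control 24 h replicate 1 (-0.91 to -0.84, adjusted p 0.0582 to 0.0773) or with no filter on level (0.0619).

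The other lysosomal genes were mostly lower at 48 h. Of 42 tested, 2 were higher and 12 lower at 24 h and 3 higher and 29 lower at 48 h, with a median of -0.49 at 48 h against -0.06 over all tested genes. The called shares were 33.3% at 24 h and 76.2% at 48 h, against 32.4% and 59.6% of all tested genes. Without Kbr 48 h replicate 3, 26 of the 42 were lower at 48 h, and 3349 of all 10574 tested genes were. CTSO, a cysteine cathepsin, read 6.71, 6.98 and 6.28 in controls and 5.72, 5.24 and 5.52 with Kbr at 24 h, and 6.92, 6.95 and 6.72 against 3.72, 3.76 and 4.11 at 48 h, a change of -3.0 (SE 0.19, limma adjusted p = 1.09e-06). The 48 h value of CTSO with Kbr thus lay under the level for testing in 2 of 3 arrays, and group means under it were also reached by GAA, acid alpha-glucosidase (-1.58 and -2.01), and SMPD1, acid sphingomyelinase (-0.93 and -2.07), so the size of these falls is limited by the low end of the scale. With an offset of 32 the changes were -1.67 for CTSO at 48 h, -0.77 and -0.93 for GAA, and -0.25 and -0.68 for SMPD1. At 24 h the SMPD1 call held in 8 of 19 alternatives: it was lost without any of the 3 Kbr 24 h arrays, Kbr 48 h replicates 1 and 2, control 24 h replicates 1 and 2 and control 48 h replicate 2 (adjusted p 0.0502 to 0.0958), and with the offset of 32 (0.126), no filter on level (0.106) or only the groups compared (0.0953). Without control 24 h replicate 1 the SMPD1 change was -0.49. SMPD1 and TMEM175, both among the 42 tested, passed the level for testing in control arrays only, so the filter favoured a fall in them. HGSNAT, which acetylates heparan sulfate in the lysosome, changed by -2.72 at 48 h in its brightest probe set and by -0.71 and -0.39 in the others. The called rises were in OSTM1, a partner of the lysosomal chloride transporter (0.51 and 0.71), M6PR, a receptor that sorts enzymes to the lysosome (0.33 and 0.45), and TMEM192, a lysosomal membrane protein (0.66 at 48 h). The 24 h call of M6PR was lost without Kbr 24 h replicates 2 or 3 or control 24 h replicates 1 or 2 (0.29 to 0.32, adjusted p 0.0666 to 0.0922), and the TMEM192 call without Kbr 48 h replicate 2 (0.47, 0.0739) or control 48 h replicate 1 (0.50, 0.0734).

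Pump genes outside the 46 were mostly lower at 48 h. Of 11 tested, 0 were called higher by limma at 24 h, where 1 was higher at an unadjusted p under 0.05, and 2 were lower. Over all tested genes 12.4% were called higher and 20.0% lower at 24 h. At 48 h, 1 of the 11 was higher and 8 were lower, with a median of -0.49. Without Kbr 48 h replicate 3, 6 of the 11 were lower, and 3349 of all 10574 tested genes were. The 8 make up 72.7% of the 11, against 32.8% of all tested genes called lower, and the difference from the listed subunits was not tested. The list holds tissue-restricted isoforms, accessory proteins and assembly factors. ATP6V0E2, the second form of subunit e, changed by -0.79 at 24 h and -1.91 at 48 h (SE 0.21, limma adjusted p = 2.19e-05), where ATP6V0E1 differed by 0.06. TCIRG1, the a3 form of subunit a, read 6.96, 5.87 and 6.15 in controls and 4.91, 4.46 and 3.96 with Kbr at 48 h (-1.88, SE 0.36, adjusted p = 0.000914; -1.06 with the offset of 32), while the a1 form ATP6V0A1 was called higher. DMXL2, part of the complex that reassembles V1 on V0, changed by -1.14 and -1.58, and by -0.56 and -0.78 in the mean of all its probe sets. Neither 24 h call held without control 24 h replicate 1 (ATP6V0E2 -0.71, adjusted p = 0.0591; DMXL2 -0.93, adjusted p = 0.115), that of ATP6V0E2 was also lost without Kbr 24 h replicate 2 (-0.70, 0.0549), and that of DMXL2 without Kbr 24 h replicate 1, Kbr 24 h replicate 3 or control 24 h replicate 2 (-1.22 to -1.01, 0.0514 to 0.0964) or with no filter on level (0.0885). ATP6V1G2, the neuronal form of subunit G, fell by 1.33 at 48 h from a control mean of 4.34, close to the level for testing, and is named after its values were seen. It is among the 8 and passed that level in control arrays only (means with Kbr 3.06 and 3.00), so the filter favoured a fall in it.

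The a2 form, ATP6V0A2, has no settled direction. Its brightest probe set, 205704_s_at, read 6.04, 6.81 and 7.02 in controls and 8.87, 8.48 and 7.96 with Kbr at 48 h (1.82, SE 0.31, limma adjusted p = 0.000431), whereas 229572_at changed by -0.80 (SE 0.15, adjusted p = 0.00089 over probe sets). Both changes were called. The forms of subunit a thus moved differently at 48 h in the probe sets used here.

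**Figure D4:**
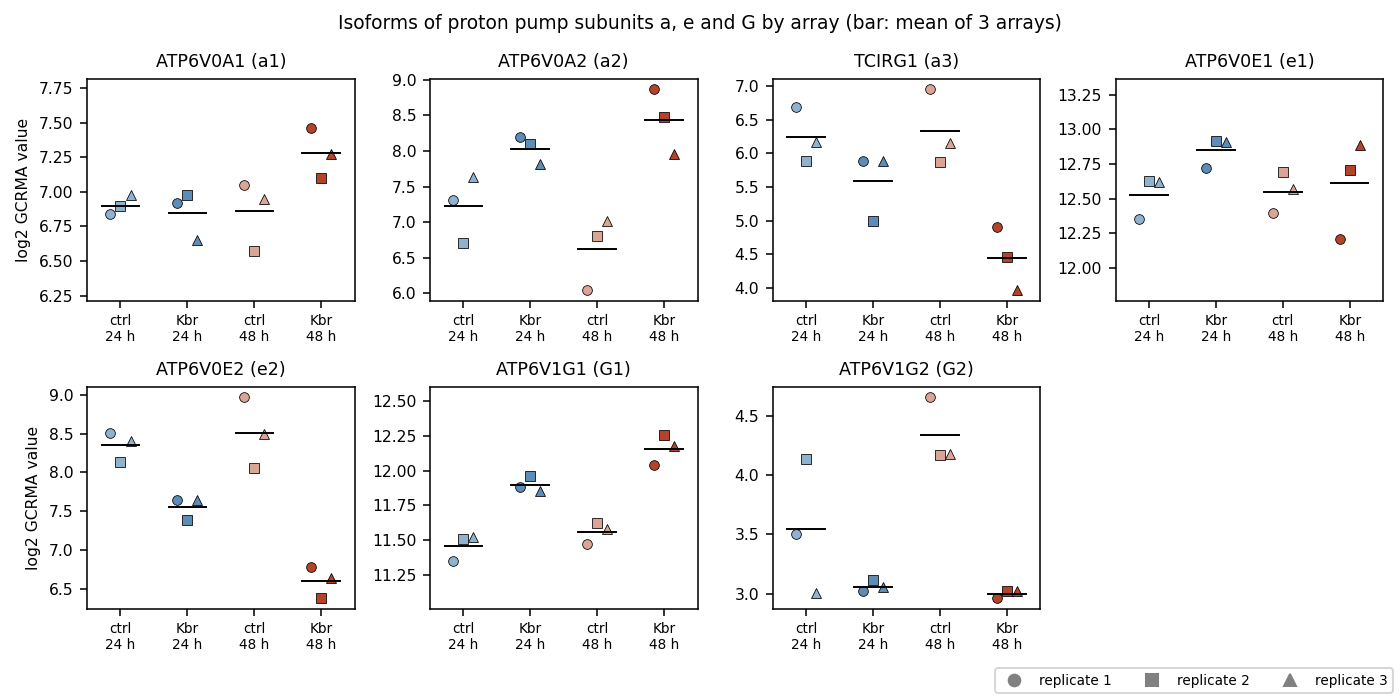
Log2 GCRMA value by array for the measured isoforms of pump subunits a, e and G, with the replicate number as the marker shape and a bar at the mean of 3 arrays; each panel has its own vertical range. At 48 h ATP6V0E2 and TCIRG1 lie lower in all Kbr arrays than in any control, ATP6V0A1 and ATP6V1G1 lie higher, ATP6V0A2 lies higher in the probe set used here and lower in its other one, and ATP6V0E1 overlaps.

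The lysosome is also where the growth kinase complex mTORC1 is activated, and mTORC1 restrains autophagy and TFEB. Of 19 genes of this group tested, 1 was higher and 3 lower at 24 h, and 3 were higher and 6 lower at 48 h. The called shares, 21.1% and 47.4%, lay below the 32.4% and 59.6% of all tested genes. DEPTOR, an inhibitory partner of the kinase, read 11.88, 12.07 and 11.49 in controls and 9.77, 10.16 and 9.73 with Kbr at 24 h, and 12.30, 12.36 and 12.43 against 10.00, 10.40 and 10.21 at 48 h. Every Kbr array was lower than every control, by 3.80-fold and 4.48-fold (SE 0.17 for each log2 change; limma adjusted p = 6.29e-05 and 3.06e-06). These folds are of its brightest probe set (log2 fold changes -1.92 and -2.16), and the mean of all its probe sets changed by -0.95 and -1.07. TSC2, a brake on the activator RHEB, changed by -1.85 at 48 h and by -0.92 in the mean of its probe sets, and RRAGD and RRAGA, GTPases that hold mTORC1 on the lysosome, changed by -0.78 and -0.60 at 24 h. RHEB rose by 0.38 and 0.59 (0.38 and 0.37 in the mean of its probe sets, 0.94 and 0.85 with unsuffixed ones), and FNIP1 and FLCN, partners that act on the Rag GTPases, rose by 0.57 and 0.47 at 48 h. FLCN was not called without Kbr 48 h replicates 1 or 2 or control 48 h replicates 1 or 3 (0.34 to 0.50, adjusted p 0.0537 to 0.123), with no filter on level (0.0707) or with only the groups compared (0.0626), and its probe sets averaged 0.30.

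**Figure D5:**
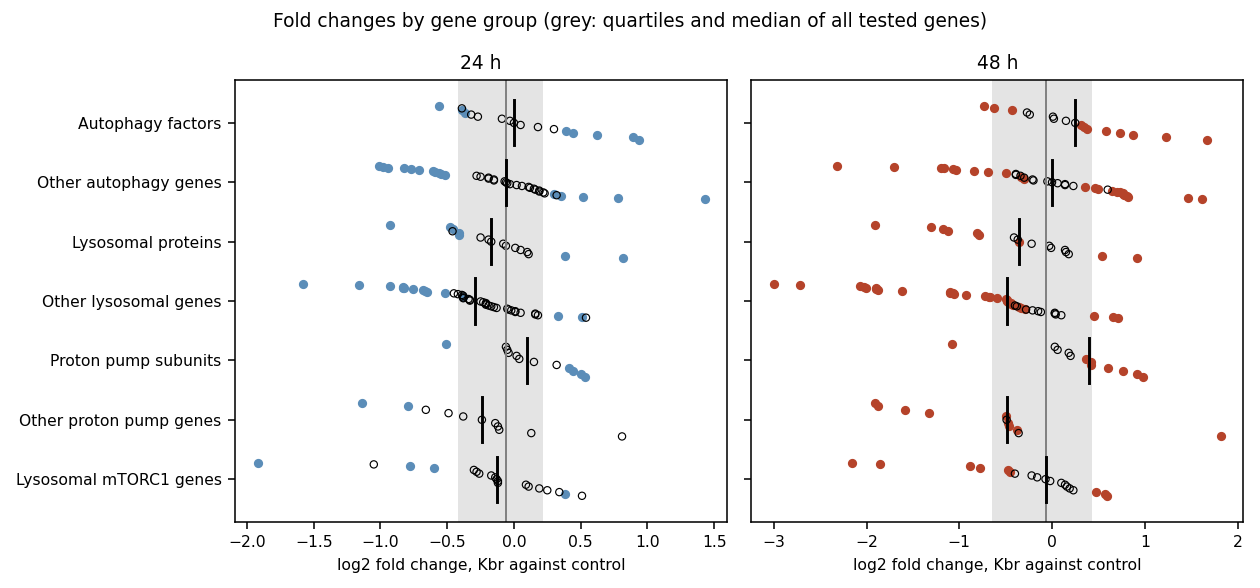
Log2 fold change of Kbr against control for every tested gene of each group, at 24 h and 48 h; filled points were called, the black line is the group's median, and the grey band and line are the quartiles and median of all 10574 tested genes. At 48 h the median is 0.25 for the autophagy factors, -0.36 for the lysosomal proteins and 0.39 for the pump subunits, and -0.49 for both the other lysosomal and the other pump genes.

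Several genes had more than 1 probe set over the level for testing, 27 of the 46, and the other 19 had a single one. At 24 h all probe sets of 5 of these 27 genes were called in the same direction, some but not all were called in 8, and none in 14. At 48 h the numbers were 12, 7 and 7, and in 1 gene, ATG5, probe sets were called in opposite directions. Averaging all probe sets of a gene, the dim ones included, shrank the changes of NBR1, TPP1, GUSB, HEXA, NAGLU and LIPA by over 1.5 times. HEXA was then called at neither time (-0.09, adjusted p = 0.346 at 24 h; -0.05, adjusted p = 0.532 at 48 h), though its other 3 probe sets lay under the level for testing. The 24 h calls of NBR1 (-0.20, adjusted p = 0.0577), TPP1 (-0.32, 0.091), GUSB (-0.15, 0.125), LIPA (-0.19, 0.0605) and TFE3 (0.55, 0.0649) were lost in that average too. At 48 h it gave NBR1 -0.23, TPP1 -0.85, GUSB -0.53, NAGLU -0.95 and LIPA -0.40, all still called. With no filter on level, the 24 h calls of TPP1 (adjusted p = 0.0826), ATP6V1C1 (0.0809) and ATP6V1E1 (0.0542) and the 48 h call of ATP6V0A1 (0.0505) were lost. With only the groups compared, TPP1 at 24 h (0.0649) and ATP6V0A1 (0.0701) and ATP6V1B2 (0.071) at 48 h were lost. Of the 20 calls at 24 h, 7 held under every alternative other than a stricter threshold, those of GABARAPL1, GABARAPL2, ATG16L1, GLA, NAGLU, ATP6V0B and ATP6V1G1. At 48 h, 22 of 28 did.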

How the data were processed

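Biotin-labelled RNA of 12 HK-2 cultures was read on Affymetrix arrays, per the labels' protocols. The deposited log2 values came from GCRMA, which corrects background by probe sequence, normalizes the arrays to each other and summarises probes, per the submitters' processing notes, in a version not given in the sources used here. Detection calls and scanner intensities were not used here. The platform annotation gave a single symbol for 41091 of 54675 probe sets, several for 1801 and none for 11721, and 62 were controls. Probes that bind related transcripts, and the choice of a probe set, can change a value.

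Genes whose log2 value passed 4 on 3 or more arrays entered a limma fit (version 3.58.1, R 4.3.3; lmFit, then eBayes; 12 arrays, 4 groups, two-sided, 8 residual and 2.87 prior degrees of freedom), and p-values were adjusted by Benjamini-Hochberg over all 10574 tested genes. SE is the moderated standard error. Comparisons were Kbr against control at each time, the difference of these effects, and control 48 h against 24 h. The number of arrays limits the precision.

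The labels repeat the replicate numbers in each group. In deviations from the group means, same-number arrays (18 pairs) correlated at 0.232 to 0.633 and others (36 pairs) at -0.378 to -0.004. The numbers thus pair the arrays. The blocked value (6 residual degrees of freedom) is given where it changes a call or a count by over 1.5 times. The main fit and the fits without single arrays did not use the block. With the block and no array left out, no member call was lost. Examples follow for calls lost without single arrays. At 24 h the blocked limma adjusted p was 0.0227 for BECN1, 0.00811 for ATG14, 0.00328 for CTSL, 0.00267 for ATP6V1C1 and 0.00118 for ATP6V1A. At 48 h it was 0.019 for ATP6V0A1, 0.00185 for ATP6V1B2 and 0.00112 for ATP6V1D. The block with an array left out was not tested.

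Values by array are given for the 3 largest called rises and falls of each class at each time, the ATG8 family, TFEB, TFE3 and genes called in the change of the effect, and the 3 largest called changes each way are named from each other list. Of 168 genes in those lists 156 had a single-gene probe set. The members and lists were chosen with earlier results of these data known. Probe sets tested on their own were an alternative added after the data were seen. Alternatives were the filter (none, or log2 over 6), the choice of probe set, median centring, quantile normalization, an offset of 32, a trended and robust prior, only the groups compared, the block, each array left out and an adjusted p under 0.01. The fit was tested on simulated data. Plots used matplotlib 3.10.9 under Python 3.11.15 with pandas 2.3.3.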

Additional observations from a re-analysis of the deposited data

Results flagged for a closer look

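The Kbr effect on GUSB differed between 24 h and 48 h by the test of the difference itself, by -0.71 on the log2 scale (SE 0.14, limma adjusted p = 0.0231). Kbr arrays were lower than controls of the same replicate number in all 3 replicates at both times. Over the alternatives the difference ran from -0.79 to -0.38.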

How the results depend on the processing

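Under the 9 alternatives of filter, probe set, scaling, offset, prior and groups, and with the replicate block, the number of the 46 genes called stayed within 1.5 times of 20 at 24 h and of 28 at 48 h. With the replicate block it was 25 and 31. Leaving out an array gave 10 to 21 calls at 24 h and 25 to 29 at 48 h, and an adjusted p under 0.01 left 8 at 24 h. The change of the effect, 1 call, gave 0 with the mean of all probe sets or an adjusted p under 0.01, 2 with the offset of 32 or the trended prior, 3 with the filter at log2 over 6, 10 with the replicate block and 0 to 3 without single arrays. Control time, 3 calls, gave 0 with only the groups compared or an adjusted p under 0.01, 9 with the replicate block and 0 to 4 without single arrays. ATG5 at 48 h turned to -0.18 with the mean of all probe sets and was not called (adjusted p = 0.259), and ATP6V0A2 turned to -0.80 with unsuffixed probe sets (adjusted p = 0.000754), each through a dimmer probe set that went the other way. WIPI2 rose by 0.72 at 48 h in place of 0.38 with unsuffixed probe sets. The replicate block ended no call of the 46 genes. Values near a log2 of 4 have little signal over background, so folds of TFEB, ULK1, GAA and SMPD1 are poorly resolved.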
